A study of Mus musculus with 4 samples.

Results

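Nr4a1, Nr4a2 and Nr4a3 encode the NR4A orphan nuclear receptors Nur77, Nurr1 and Nor1, and the H3S10ph peaks in and around them were described in resting and contracted mouse muscle. The 3 genes are 3 of 21951 annotated protein-coding genes. They were selected on measured values, since they were proposed after peaks of these same lists had been seen, and their peaks were taken by position: a peak belongs to a gene when it overlaps the gene body or the 20 kb on either side of it by at least 1 bp. By this rule 16 of 93418 peaks belong to the 3 genes, which are 0 of 9094 and 2 of 32740 peaks in the 2 unstimulated lists and 2 of 10901 and 12 of 40683 peaks in the 2 stimulated lists. Because presence and absence of these peaks led to the choice of the genes, the values below describe them and no test was made.

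ChIP-seq for histone H3 phosphorylated at serine 10 (H3S10ph) was made from gastrocnemius, a fast calf muscle, of male C57BL/6 mice aged 5 months. The stimulated muscles performed 50 eccentric contractions, in which the foot was moved against the tetanus, each evoked at 100 Hz for 600 ms with 30 s between them, and were frozen immediately afterwards. The unstimulated muscles came from the other leg, so both groups share the anaesthesia of the animal. For stimulation the paper describes an incision exposing the sciatic nerve, wires fixed beside it and a cut common peroneal nerve. No such operation is described for the other leg, so effects of surgery and of contraction cannot be told apart here. Each of the 4 samples pooled 6 mice, which gave 2 samples per condition and leaves the variation between animals out of view. Stimulated replicates 1 and 2 and unstimulated replicates 1 and 2 each have their own list of broad peaks, called against input DNA, with a fold enrichment and a −log10 p per peak.

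NR4A receptors differ from most nuclear receptors in that no hormone is needed to switch them on, so the amount of protein, and with it the transcription of the gene, sets their activity. All 3 are immediate early genes, transcribed within minutes of a stimulus without new protein synthesis, through factors such as CREB, which binds the cyclic AMP response element (CRE), and MEF2. In skeletal muscle they are known to respond to exercise and to adrenergic signals and to act on genes of glucose and lipid use, binding the NBRE as monomers. Phosphorylation of H3S10 is known both from condensed mitotic chromosomes and, in cells that do not divide, from immediate early genes being switched on.

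The promoters of the 3 genes are shown because they hold annotated start sites of the genes, and because they share a sequence feature that the choice of genes did not use. The first 3 are the promoters given by RefSeq (GRCm38.p6, which is mm10), from 250 bases before to 50 after the start, and the fourth covers the same bases around the start of the principal transcript of Nr4a2, which lies inside the gene. Capitals mark TGACG, the core of the CRE, or CGTCA, the same letters on the other strand, and in the fourth also the full CRE TGACGTCA, which counts as 2 overlapping cores.
Nr4a1 promoter, chr15:101266596-101266895, plus strand: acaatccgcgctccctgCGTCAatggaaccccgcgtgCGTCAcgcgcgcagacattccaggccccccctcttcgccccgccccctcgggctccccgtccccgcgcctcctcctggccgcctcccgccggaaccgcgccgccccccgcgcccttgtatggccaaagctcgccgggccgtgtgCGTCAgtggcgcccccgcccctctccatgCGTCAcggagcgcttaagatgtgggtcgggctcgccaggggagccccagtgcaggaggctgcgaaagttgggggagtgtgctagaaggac
Nr4a2 promoter at the upstream start, chr2:57123954-57124253, minus strand: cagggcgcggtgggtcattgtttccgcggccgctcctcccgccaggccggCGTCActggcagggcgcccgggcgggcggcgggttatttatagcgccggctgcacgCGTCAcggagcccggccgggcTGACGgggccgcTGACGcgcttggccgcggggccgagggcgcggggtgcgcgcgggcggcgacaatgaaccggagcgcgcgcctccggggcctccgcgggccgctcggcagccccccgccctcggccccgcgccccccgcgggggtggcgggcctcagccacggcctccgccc
Nr4a3 promoter, chr4:48045055-48045354, plus strand: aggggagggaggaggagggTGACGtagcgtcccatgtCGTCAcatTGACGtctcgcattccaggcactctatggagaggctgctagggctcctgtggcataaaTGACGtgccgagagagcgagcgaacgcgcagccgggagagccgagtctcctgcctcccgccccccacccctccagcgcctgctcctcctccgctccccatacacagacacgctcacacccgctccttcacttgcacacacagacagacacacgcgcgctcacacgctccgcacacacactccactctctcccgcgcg
Nr4a2 promoter at the principal start, chr2:57114989-57115288, minus strand: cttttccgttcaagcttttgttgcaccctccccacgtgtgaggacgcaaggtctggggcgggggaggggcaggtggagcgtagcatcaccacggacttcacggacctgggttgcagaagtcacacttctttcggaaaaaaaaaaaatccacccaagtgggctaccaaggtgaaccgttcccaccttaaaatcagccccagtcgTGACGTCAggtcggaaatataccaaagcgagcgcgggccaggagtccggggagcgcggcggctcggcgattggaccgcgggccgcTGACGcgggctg
Each of the 3 RefSeq promoters held 4 TGACG cores. In Nr4a1 they began 233, 213, 69 and 40 bp before the start, in Nr4a2 200, 144, 123 and 111 bp before it, and in Nr4a3 231, 213, 205 and 147 bp before it. These are the starts of RefSeq. For Nr4a1 it is also the start of the principal transcript, from which the peaks below are measured, whereas for Nr4a2 that transcript starts 8965 bp farther into the gene and for Nr4a3 it starts 152 bp farther upstream, so that distances from it differ from those given here. Of all 32851 RefSeq promoters, 20.8% held at least 1 core and 0.231%, or 76 promoters, held at least 4. The limit of 4 was set after the counts of the Nr4a genes were seen. None of 40 other nuclear receptor genes and none of 25 other immediate early genes with a promoter in the table had 4. The most among them were the 3 cores of Dusp1 and of Nr2e1. Since only 0.255% of all genes of the table had at least 4, lists this short would seldom hold one. At least 1 core was held by 30.0% of those nuclear receptor genes and 64.0% of those immediate early genes, against 23.0% of all genes of the table. The promoter at the principal start of Nr4a2 held a full CRE 47 bp before its start, a motif found in 1.79% of promoters, and 3 cores in all. None of the 4 sequences held an NBRE (AAAGGTCA or TGACCTTT), a CArG box or a MEF2 site, which says only that these letters are not in these windows. Base composition goes with such counts: GC made up 72.3% of the Nr4a1, 81.7% of the Nr4a2 and 64.7% of the Nr4a3 promoter, against a median of 52.7% over all promoters, and its part in the counts was not tested.

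The 4 lists differ in length and in kind, which bears on every count below. The weakest peak of each had a −log10 p between 2.00 and 2.04, and the q-value was 1 for 88.7% to 99.0% of their peaks. The highest −log10 q of any Nr4a peak was 0.02448, on Nr4a1 in stimulated replicate 1. No Nr4a peak would therefore pass a customary limit on the q-value, and the ranks below are places within such lists. Both replicate 1 lists are the short ones of their condition. Unstimulated replicate 1 stood apart from the others: 522 of its peaks lay on the X chromosome against 16 to 19 in the other lists, and the median GC content of its peaks was 38.0% against 43.9% to 44.5%. It held no Nr4a peak, so the differences between the means and the count of genes with the Nr4a1 pattern among the 3 are also given without it. Other results that rest on its silence, such as the shares of all genes with a given pattern, are not. Of the muscle fibre markers fixed for this purpose, 5 of 10 had a gene body peak in stimulated replicate 1 and 6 of 10 in stimulated replicate 2, Acta1, Myh4 and Tnnt3 in both, while no macrophage marker had one in replicate 1 and 3 of 4 had one in replicate 2. Satellite cell markers had 1 of 4 in each stimulated list, endothelial markers 1 and 5 of 5 and fibroblast markers 1 of 4 in each, against 0 and 1, 0 and 2 and 0 and 2 in the unstimulated lists, where muscle fibre markers had 2 and 5 and macrophage markers 0 and 0. Among the fibre markers Myh2 and Mylpf had no peak in any list. Over all protein-coding genes 11.9% and 31.2% had a gene body peak in the unstimulated lists and 16.0% and 42.3% in the stimulated lists. The replicate 2 lists thus gave higher shares over all genes too. A list of peaks gives no expression, and the cell type behind a peak was not tested.

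Over the 3 genes together, peaks on the gene bodies covered 0 and 274 bp in unstimulated replicates 1 and 2, against 4846 and 14041 bp after contraction. The mean was 137.0 ± 194 bp in unstimulated and 9444 ± 6500 bp in stimulated muscles (SD, n = 2 each). The stimulated samples differed from each other by almost as much as the means did. Gene bodies and flanks together had 0 and 2 peaks without and 2 and 12 peaks after contraction, 1 ± 1.41 against 7 ± 7.07 peaks (SD, n = 2 each), and here stimulated replicate 1 equalled unstimulated replicate 2. Most of the covered length lay on 1 gene, Nr4a1.

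Presence of a gene body peak gave each gene its own pattern. Of the 3 genes 0 had such a peak in unstimulated replicate 1, where 11.9% of all protein-coding genes had one. In unstimulated replicate 2 it was 1 of 3, Nr4a3, with 31.2% of all genes. In stimulated replicate 1 it was 1 of 3, Nr4a1, with 16.0% of all genes, and in stimulated replicate 2 all 3, with 42.3% of all genes. Nr4a1 had peaks in both stimulated and in neither unstimulated list, as did 600 of all genes (2.73%). Nr4a3 had peaks in replicate 2 of both conditions and in neither replicate 1, as did 9.75% of all genes, and Nr4a2 in stimulated replicate 2 alone, as did 15.6%. With the 20 kb flanks included, the members with a peak were the same in each list, while the share of all genes rose to 19.4% and 57.4% in the unstimulated and to 30.7% and 69.4% in the stimulated lists. The patterns of Nr4a2 and Nr4a3 are thus more common than that of Nr4a1, and since these patterns led to the choice nothing further is read from the shares.

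**Figure D1:**
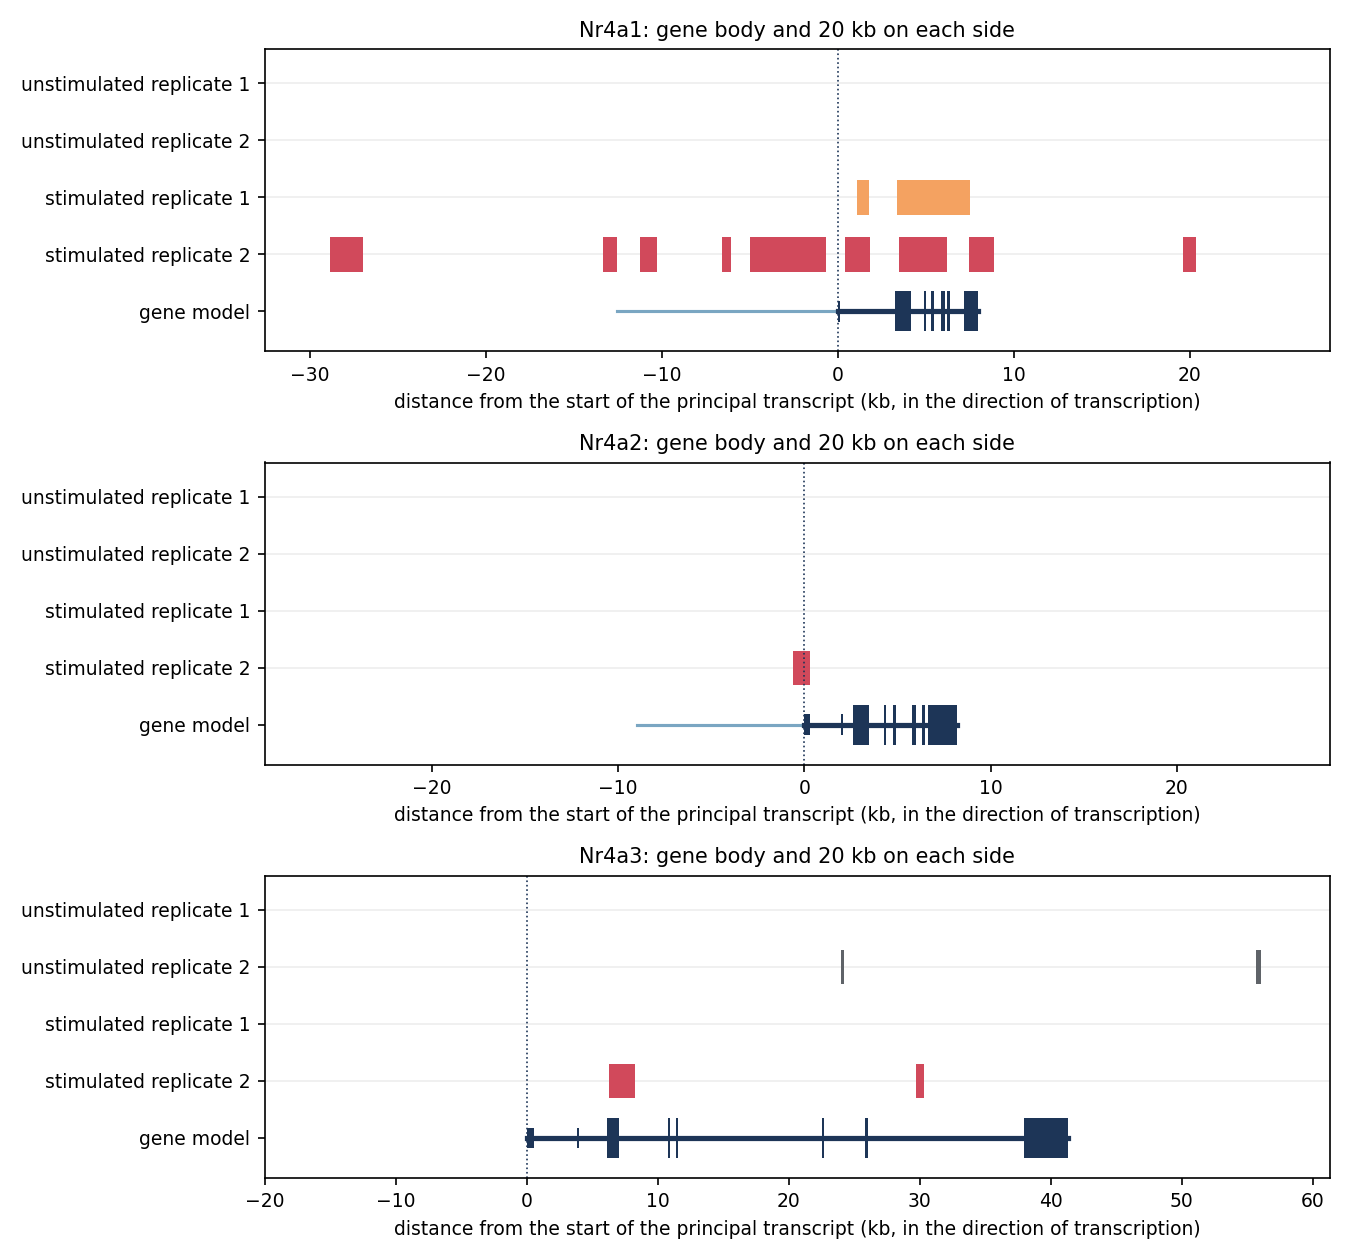
Peaks of the 4 lists (coloured blocks) over Nr4a1, Nr4a2 and Nr4a3 with 20 kb on each side, against the distance in kb from the start of the principal transcript (dotted line). Tall boxes are exons with coding sequence, low boxes exons without, and the thin line the span of transcripts that start farther upstream. Nr4a1 carries 2 peaks in stimulated replicate 1 and 9 in stimulated replicate 2 and none in the unstimulated lists, while Nr4a2 has 1 peak in stimulated replicate 2 and Nr4a3 has 2 in unstimulated and 2 in stimulated replicate 2.

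Nr4a1 (ENSMUSG00000023034.7) lies on the plus strand at chr15:101254269-101274795, an annotated body of 20.5 kb with 4 transcripts. Its principal transcript is shorter, at 7950 bp and 7 exons, and starts 12577 bp inside the annotated gene, since other transcripts begin farther upstream. The protein-coding sequence begins in exon 2. Neither unstimulated list had a peak in the window, and the peak nearest to the start of the principal transcript was 384905 bp away in unstimulated replicate 1 and 56938 bp away in replicate 2. In the stimulated lists the nearest peak was 1104 and 391 bp away. Peaks covered 0% and 0% of the gene body in the unstimulated and 23.6% and 51.6% in the stimulated lists.

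In stimulated replicate 1 Nr4a1 carried 2 peaks. The first, chr15:101267950-101268622, was 673 bp wide and lay wholly in intron 1, from 1104 to 1777 bp after the start, with a fold enrichment of 2.39 and a −log10 p of 2.89. The second, chr15:101270182-101274354, ran over 4173 bp from exon 2 to exon 7 with a fold of 2.49 and a −log10 p of 3.19. That peak took in nearly the whole coding part of the gene, with 1706 coding bases among its 1811 exonic bases, in a list whose median peak was 360 bp wide. By fold they ranked 2399 and 1271 of 10901, within the top 22.0% and 11.7% of their list.

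In stimulated replicate 2 it carried 7 gene body peaks, and only 3 of them lay in or reached the principal transcript. A peak of 1423 bp, chr15:101267237-101268659, lay in intron 1 from 391 to 1814 bp after the start, with a fold of 2.20 and rank 8274 of 40683 (top 20.3%). A peak of 2754 bp, chr15:101270311-101273064, ran from exon 2 to exon 6 with 1194 coding bases, a fold of 2.40, a −log10 p of 2.96 and rank 1705 (top 4.19%), the highest place of any Nr4a peak as a percent of its own list, though the lists differ in length and the peak of rank 1271 above stood higher by rank. The last of the 3, of 1450 bp, began in the untranslated part of exon 7 and ran 919 bp past the gene end, with a fold of 2.05 and rank 26527 (top 65.2%). Of these 3 peaks the one over the coding exons had the highest fold and the one at the 3′ end the lowest.

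The other 4 gene body peaks of stimulated replicate 2 lay upstream of the principal transcript, where transcripts with more distant starts run. The widest Nr4a peak of all, chr15:101261832-101266157, was 4326 bp wide with a fold of 2.16 (top 29.8%) and ended 688 bp before the start. Peaks of 543 and 1001 bp farther upstream had folds of 2.07 and 2.03 (top 55.5% and 70.1%). A peak of 788 bp with a fold of 2.29 (top 10.3%) met the gene body by 8 bp only, at the most upstream annotated start. No peak of stimulated replicate 1 matched any of these 4, so the upstream span had peaks in 1 list alone.

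Peaks left the start of the principal transcript of Nr4a1 free. In stimulated replicate 2 a gap of 1079 bp, chr15:101266158-101267236, separated the upstream peak from that of intron 1 and held the start of the principal transcript, and none of the 300 promoter bases printed above lay under a peak in any list. That gap was the richest in GC of the 6 gaps between the gene body peaks of that list, at 63.5%. A second gap recurred in both stimulated lists between the peaks of intron 1 and those of the coding exons, of 1559 and 1651 bp. The lists hold no signal inside gaps, so a gap is the absence of a call.

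**Figure D2:**
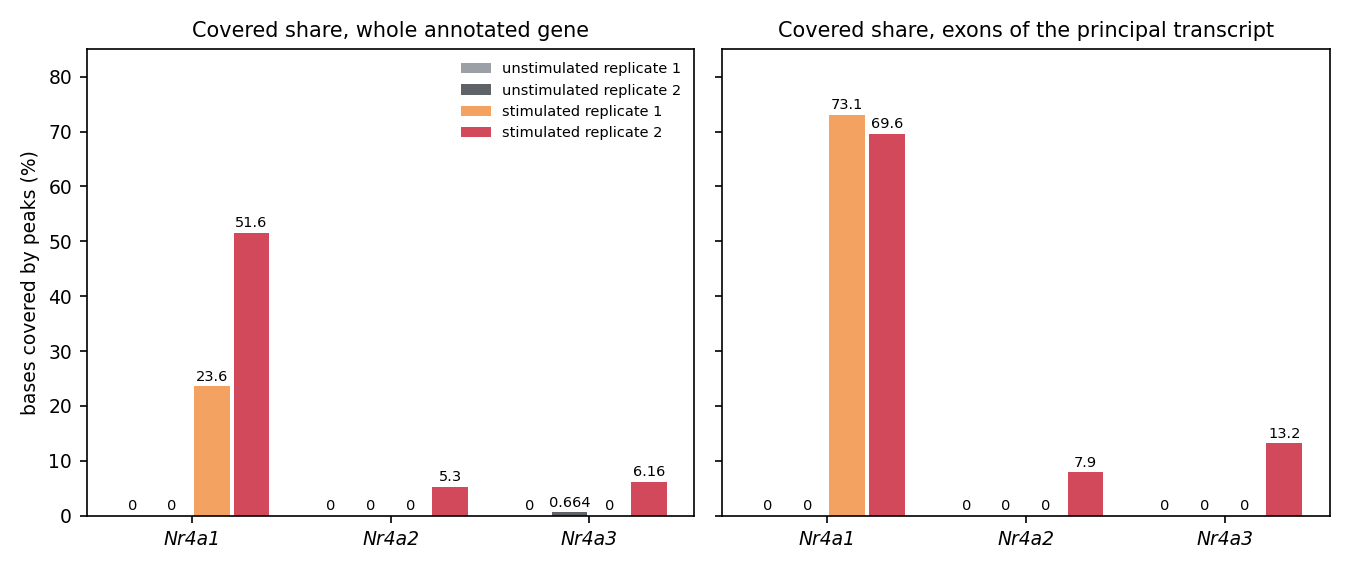
Bars give the percent of bases covered by peaks in each of the 4 lists, for the whole annotated gene (left) and for the exons of the principal transcript (right), without error bars because each bar is 1 sample. Nr4a1 exons were covered at 73.1% and 69.6% in the stimulated lists and at 0 in the unstimulated lists, while the exons of Nr4a2 and Nr4a3 were covered at 7.90% and 13.2% in stimulated replicate 2 alone.

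Measured on the principal transcript, both stimulated samples gave nearly the same cover of Nr4a1. Peaks covered 61.0% and 59.2% of that transcript, with 73.1% and 69.6% of its exonic bases and 55.5% and 54.5% of its intronic bases. The difference between the replicates over the whole gene body, 23.6% against 51.6%, came from the upstream span. The stretches under peaks of both lists were 673 bp in intron 1, 2754 bp from exon 2 to exon 6 and 90 bp in exon 7, together 3517 bp, which are 72.6% of what replicate 1 covered and 33.2% of what replicate 2 covered. The intron 1 peaks ended 37 bp apart and started 713 bp apart, whereas the peaks over the coding exons started 129 bp apart and ended 1290 bp apart.

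Among the 600 genes with peaks in both stimulated and neither unstimulated list, the length under peaks of both stimulated lists was 3517 bp in Nr4a1, 2221 bp in Jun, 1428 bp in Gadd45g and 1101 bp in Jund, which are immediate early genes too. Gene length bounds this order: Jun, Gadd45g and Jund are 3.19, 1.79 and 1.67 kb long and could not have reached 3517 bp, and the order uses the peaks that led to the choice of Nr4a1. Among all 216 genes with any shared length, including those with unstimulated peaks, Nr4a1 ranked 9. By covered share of the gene body it ranked 37 of 21951 genes in stimulated replicate 1 and 43 in replicate 2. The number of peaks set it less apart, since 979 genes had at least 2 gene body peaks in replicate 1 and 634 had at least 7 in replicate 2.

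**Figure D3:**
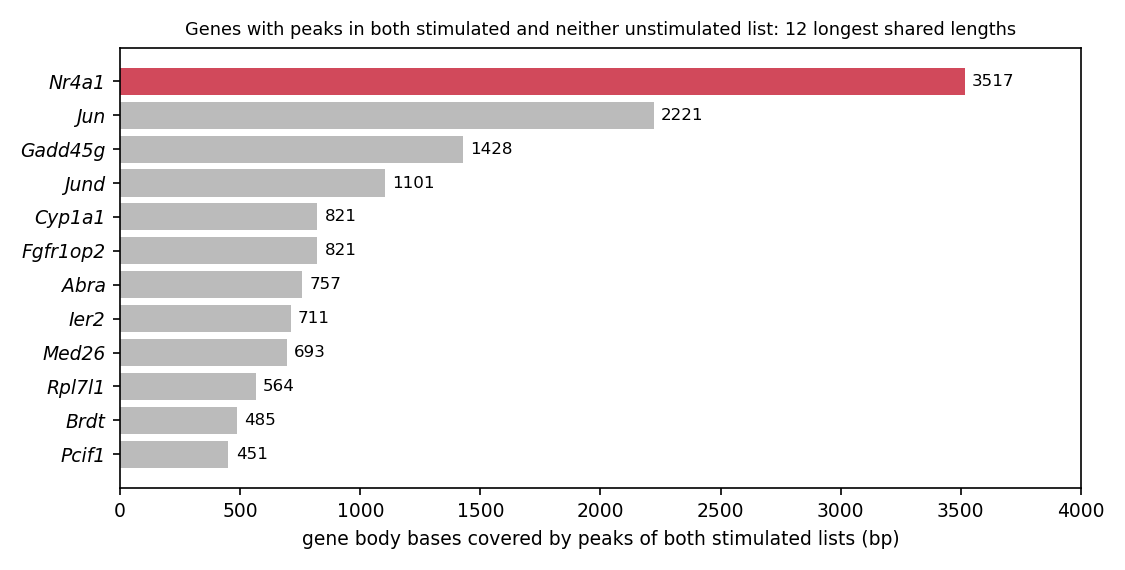
Bars give, in bp, the gene body length under peaks of both stimulated lists for the 12 genes with the longest such length among the 600 genes with peaks in both stimulated and neither unstimulated list. Nr4a1 stands at 3517 bp, Jun at 2221 bp and Gadd45g at 1428 bp, and since a gene cannot share more than its own length, genes shorter than 3517 bp, Jun and Gadd45g among them, could not stand above Nr4a1.

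The sequences of both long shared stretches of Nr4a1 are shown because they are the positions at which the stimulated samples coincide. They are the middle 300 bases of each (RefSeq GRCm38.p6), in lower case throughout since none of the 5 motifs searched was in them.
Nr4a1 intron 1 stretch, chr15:101268136-101268435, plus strand: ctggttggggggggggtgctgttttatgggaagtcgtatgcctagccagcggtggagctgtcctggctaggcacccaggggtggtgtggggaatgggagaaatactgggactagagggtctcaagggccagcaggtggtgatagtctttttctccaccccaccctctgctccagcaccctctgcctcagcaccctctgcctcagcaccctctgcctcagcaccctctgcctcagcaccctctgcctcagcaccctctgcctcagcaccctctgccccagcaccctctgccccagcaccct
Nr4a1 coding stretch, chr15:101271538-101271837, plus strand: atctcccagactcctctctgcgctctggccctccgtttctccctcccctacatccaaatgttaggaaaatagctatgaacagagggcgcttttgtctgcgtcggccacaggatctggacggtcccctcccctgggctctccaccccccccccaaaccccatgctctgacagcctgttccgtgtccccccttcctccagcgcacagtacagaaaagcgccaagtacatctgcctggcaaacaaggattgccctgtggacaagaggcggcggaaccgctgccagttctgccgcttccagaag
The first ends in a tandem repeat of a unit of 15 bp. Over the whole shared stretch the repeat was 250 bp long with 16.7 units, chr15:101268288-101268537, which is 37.1% of the stretch. Reads that map to several places were removed before peaks were called, and the bearing of the repeat on the peak was not tested. The second runs from intron 2 into exon 3, and the longest repeat in its shared stretch was 16 bp. That stretch is named for the coding exons it spans, and it held 1194 coding and 1560 intronic bases. GC content varied among the Nr4a1 peaks. The 2 of stimulated replicate 1 held 59.9% and 56.9%, more than 98.0% and 95.9% of the peaks of their list, and the coding peak of stimulated replicate 2 held 58.0%, more than 96.4% of its list. The other 6 gene body peaks of that list ranged from 46.0% to 60.8%, with those of 1450, 1001 and 4326 bp at 46.0%, 51.3% and 52.5%. The gene body as a whole held 54.5%, more than these 3, and the part of GC content in the calls was not tested.

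Around Nr4a1, flanking peaks were found in stimulated replicate 2 alone. One of 1839 bp lay 14446 bp upstream of the gene with a fold of 2.08 (top 53.9%), and one of 758 bp lay 11640 bp downstream with a fold of 2.01 (top 77.6%), inside Atg101, whose protein acts in the start of autophagy. Together with the part of gene body peaks outside the gene they covered 4296 bp, or 10.7% of the flanks, where peaks of that list covered 0.850% of the genome. The other neighbour in the window, 6030408B16Rik, had no peak in any list. Just outside the limit of 20 kb, the nearest peaks of that list lay 24344 bp upstream and 44717 bp downstream. From 20 to 200 kb it held 6, 4 and 5 peaks in the steps 20 to 50, 50 to 100 and 100 to 200 kb, against 0, 0 and 1 in stimulated replicate 1, 1, 1 and 5 in unstimulated replicate 2 and 0 throughout in unstimulated replicate 1.

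**Figure D4:**
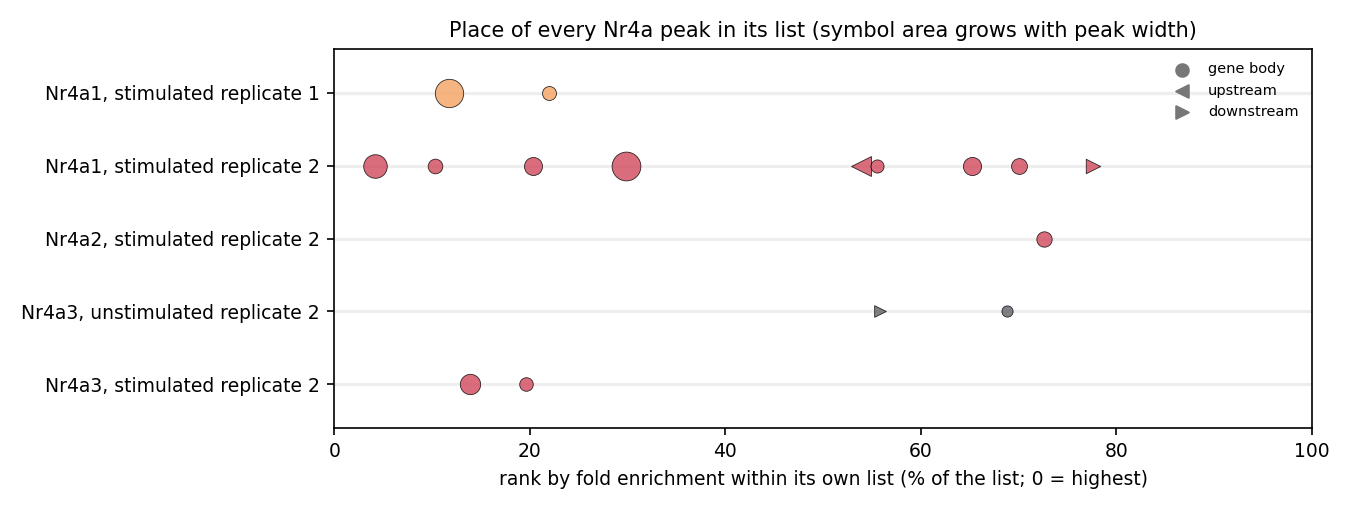
Each symbol is 1 of the 16 Nr4a peaks, placed by its rank by fold enrichment as a percent of its own list (0 is the highest), with circles for gene body peaks, triangles for flanking peaks and an area that grows with width. The coding peak of Nr4a1 in stimulated replicate 2 stands at 4.19%, and the peak of Nr4a2 at 72.6%.

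Nr4a2 (ENSMUSG00000026826.13), at chr2:57106830-57124003 on the minus strand, had 0, 0 and 0 peaks in the unstimulated lists and stimulated replicate 1 and 1 peak in stimulated replicate 2. The gene body is 17.2 kb long with 6 transcripts. The peak, chr2:57114757-57115666, was 910 bp wide and lay over the start of the principal transcript, from 628 bp before to 282 bp after it, all exonic bases in it being in the untranslated exon 1. It covered 5.30% of the gene body and all 300 bases of the fourth promoter printed above, with its CRE, the only one of the 4 promoters under a peak. The annotated start farther upstream, by 8965 bp, lay under none.

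The peak of Nr4a2 was among the weaker ones of its list. Its fold was 2.03 and its −log10 p 2.06, rank 29516 of 40683 (top 72.6%), where 69.4% of all genes had a peak in or near them. Its GC content was 59.9%, more than 97.5% of the peaks of the list. The position at the start sets it off from Nr4a1, where the start lay between peaks. In the other lists the nearest peak to the start was 46999 and 85989 bp away in unstimulated replicates 1 and 2 and 58424 bp away in stimulated replicate 1, the last within BB557941, annotated as a processed transcript, which reaches into the window of Nr4a2 though the peak does not.

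Nr4a3 (ENSMUSG00000028341.9), the longest of the 3 at 41.3 kb (chr4:48045153-48086447, plus strand), had 0 and 1 gene body peaks in the unstimulated lists and 0 and 2 in the stimulated lists. Peaks covered 0% and 0.664% of it in unstimulated and 0% and 6.16% in stimulated muscles. Both replicate 1 lists were thus empty here, and the comparison rests on the replicate 2 lists. In unstimulated replicate 2 a peak of 274 bp lay in an intron, chr4:48069105-48069378, with a fold of 2.04 and rank 22509 of 32740 (top 68.8%), and one of 336 bp lay 14381 bp downstream of the gene with a fold of 2.07 (top 55.8%).

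In stimulated replicate 2 the peaks of Nr4a3 lay elsewhere and ranked higher. One of 1931 bp, chr4:48051448-48053378, began in exon 3, the first with coding sequence, and held 754 of its coding bases, with a fold of 2.25 and rank 5639 of 40683 (top 13.9%). One of 614 bp, chr4:48074836-48075449, lay in an intron with a fold of 2.21 and rank 7974 (top 19.6%). Peaks of the replicate 2 lists covered only 0.632% of the genome in unstimulated and 0.850% in stimulated muscles. How often the positions of these 2 lists differ over all genes was not computed, and no shift of peaks is read from the positions here. The start was free of peaks, with the nearest 6295 bp away. In stimulated replicate 2 a peak covered part of the first coding exon in both Nr4a3 and Nr4a1, and none did in Nr4a2.

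The 3 genes are built alike, which helps to compare where peaks fell. In the principal transcripts the first coding exon is a long one, of 887 bp in Nr4a1, 866 bp in Nr4a2 and 956 bp in Nr4a3, followed by an exon of 130 bp in all 3 and, farther on, one of 179 bp in all 3. The introns differ, with 5473 bp in Nr4a1, 4641 bp in Nr4a2 and 35573 bp in Nr4a3 in total. A peak of given width therefore covers less of Nr4a3, and the lengths covered on the gene body in stimulated replicate 2, 10586 bp in Nr4a1, 2545 bp in Nr4a3 and 910 bp in Nr4a2, keep the same order as the shares. In stimulated replicate 1 only Nr4a1 had any.

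Stricter lists kept Nr4a1 longest. At a −log10 p of at least 2.5, 2 gene body peaks of Nr4a1 remained in each stimulated list and 1 of Nr4a3 in stimulated replicate 2, and none in the unstimulated lists. At 3 or more, only the peak of 4173 bp on Nr4a1 in stimulated replicate 1 remained, so at that limit Nr4a1 no longer had peaks in both stimulated lists. The methods state a cutoff of the same size, but the lists hold values down to 2.00. A limit of 3 on these values is therefore stricter than the authors' calls. When each list was limited to its 9094 peaks of highest fold, the length of the shortest list, Nr4a peaks numbered 0 and 0 without contraction and 2 and 5 after it. Both Nr4a3 peaks of stimulated replicate 2 were kept there and the peak of Nr4a2 was not.

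The genes most like Nr4a1 were taken as those with the same presence over the 4 lists and the nearest covered shares. Of 599 such genes, Cebpd came first, with 10.2% and 59.2% of its body covered in the stimulated lists and a summed difference of 21 percentage points over the 4 lists, followed by Syngr2 (28.0% and 26.9%), Abra (13.4% and 72.2%), Ier2 (47.2% and 60.5%) and Gm20683 (22.9% and 13.5%). Cebpd encodes a CCAAT/enhancer binding protein, Abra the STARS protein, an activator of SRF signalling in striated muscle, and Ier2 is an immediate early gene. These genes are 1522 to 7299 bp long, against 20527 bp of Nr4a1, and the likeness is one of shares over 4 lists only. For Nr4a2 the 5 nearest of 3428 genes were Mrpl30, Oaz3, Mcrip2, Wdsub1 and Chrm1, all within 0.016 percentage points, and for Nr4a3 the 5 nearest of 2139 were Rnf121, Jade2, Zbtb25, Pald1 and Trat1, all within 0.47. The nearest gene to Nr4a1 thus stood farther off, at 21 points. Its shares are larger than those of Nr4a2 and Nr4a3 and fewer genes had its pattern, both of which make near copies rarer. The distances also use the peaks that led to the choice of the genes, and nothing further is read from them.

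Other nuclear receptor genes had peaks in many cases but a different layout. Of 46 such genes, 14 and 20 had a gene body peak in the unstimulated and 16 and 35 in the stimulated lists, each above the share of all genes. The 14 with peaks in both stimulated lists, for which no share of all genes was computed, are 28.4 to 734 kb long. A long gene meets a peak more easily, and the part of gene length in these counts was not tested. Rora, the longest, had 3, 6, 3 and 34 peaks that covered 0.196% and 3.18% of it in stimulated muscles. The others were Thra, Rara, Ppard, Nr1d2, Hnf4g, Rxra, Nr2c2, Esr1, Esrrb, Esrrg, Nr3c1, Nr3c2 and Nr6a1. Rara, a retinoic acid receptor, was the only one of the 46 with the pattern of Nr4a1, which 2.73% of all genes had. Rara was covered at 0.558% and 4.90% in the stimulated lists, against 23.6% and 51.6% for Nr4a1. The highest cover among these 14 was that of Thra, a thyroid hormone receptor, with 3.81% and 11.5% in the stimulated lists and 2.38% in unstimulated replicate 2.

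**Figure D5:**
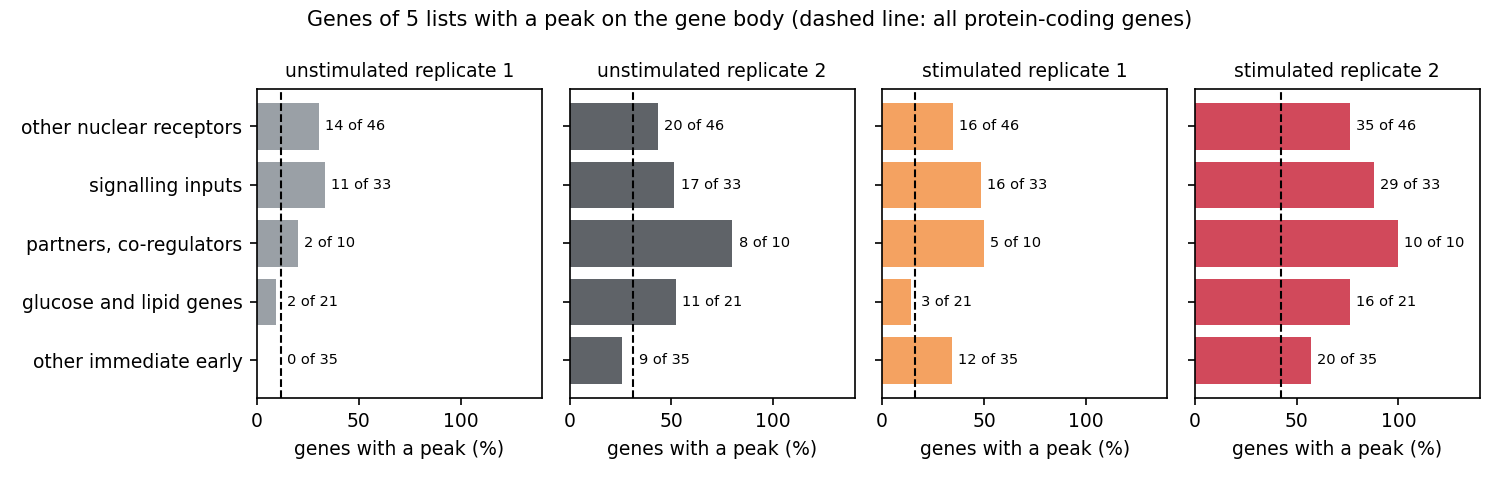
Bars give the percent of the genes of 5 lists with a gene body peak in each of the 4 peak lists, with counts beside them, and dashed lines the percent over all protein-coding genes. Other immediate early genes stand at 0 of 35 and 9 of 35 in unstimulated and at 12 of 35 and 20 of 35 in stimulated muscles, below the line in both unstimulated lists and above it in both stimulated lists.

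Genes that act upstream of the Nr4a genes had gene body peaks at shares above those of all genes in all 4 lists, the unstimulated ones included. Of 33 genes of cyclic AMP, calcium and MAP kinase signalling, 11 and 17 had a gene body peak in the unstimulated and 16 and 29 in the stimulated lists, or 33.3%, 51.5%, 48.5% and 87.9% against 11.9%, 31.2%, 16.0% and 42.3% of all genes. In both stimulated lists 16 had one, a count for which no share of all genes was computed. The 16 included Crem, Crebbp, Ep300, Crtc1, Crtc3, Mef2a, Mef2c, Hdac9, Camk2d, Prkacb, Ppp3ca, Ppp3cb, Nfatc1, Nfatc2 and Rps6ka5. Crtc1, a coactivator of CREB, and Nfatc2, a factor released by calcineurin, had the pattern of Nr4a1, as did 2.73% of all genes. Crtc1 was covered at 0.584% and 4.45% and Nfatc2 at 0.591% and 2.99%. Only Ppp3ca, the catalytic subunit of calcineurin, had bases under peaks of both stimulated lists, 466 bp. All 16 are between 47.2 and 870 kb long, so that small shares of them were covered. A long gene also meets a peak more easily, and the part of gene length in these counts was not tested.

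Partners of the NR4A proteins and their metabolic target genes gave few positions in common. Of 10 partners and co-regulators, 2 and 8 had a gene body peak in the unstimulated and 5 and 10 in the stimulated lists, or 20.0%, 80.0%, 50.0% and 100% against the same shares of all genes. The 10 genes are 6.59 to 235 kb long, and the part of gene length in these counts was not tested. None of the 10 had the pattern of Nr4a1. Since only 2.73% of all genes had it, nothing is read from its absence. Rxra, the retinoid X receptor with which Nur77 and Nurr1 can pair, had 0 and 2 peaks without and 3 and 7 peaks after contraction, and others with peaks in both stimulated lists included Ncoa2, Ncor1 and Rcor1. Of 21 genes of glucose and lipid use, 2 and 11 had a gene body peak in the unstimulated and 3 and 16 in the stimulated lists. These are 9.52% and 14.3% in the replicate 1 lists, under the 11.9% and 16.0% of all genes, and 52.4% and 76.2% in the replicate 2 lists, over the 31.2% and 42.3% of all genes. None of the 21 had the pattern of Nr4a1, which 2.73% of all genes had, and nothing is read from that either. The 3 with peaks in both stimulated lists, for which no share of all genes was computed, were Lpin1, Ppargc1b and Pdk4, the kinase that shuts off pyruvate oxidation. Pdk4 had the highest cover of them, with 0% and 3.84% covered in unstimulated and 16.3% and 18.7% in stimulated muscles, and with 1052 bp under peaks of both stimulated lists.

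Among 35 other immediate early genes, 0 and 9 had a gene body peak in the unstimulated lists and 12 and 20 in the stimulated lists. These are 0%, 25.7%, 34.3% and 57.1%, against 11.9%, 31.2%, 16.0% and 42.3% of all genes. The 10 with peaks in both stimulated lists, for which no share of all genes was computed, were Fos, Jun, Jund, Egr1, Ier2, Dusp1, Per1, Crem, Gadd45g and Klf6. Of them 5, Jun, Jund, Ier2, Gadd45g and Klf6, shared the pattern of Nr4a1, as did 2.73% of all genes. Egr1 and Fos had 3699 and 3262 bp under peaks of both stimulated lists, close to the 3517 bp of Nr4a1, but also a peak in unstimulated replicate 2, which covered 6.10% and 42.5% of them. Fos, Jun, Jund and Gadd45g are between 1.67 and 3.38 kb long and were covered at 66.0% to 98.7% in the stimulated lists by 1 peak each, whereas Nr4a1 was covered by 2 and 7 separate peaks. In stimulated replicate 2, 4 of the 35 had at least 2 gene body peaks, against 4735 of all 21951 genes. In stimulated replicate 1 Dusp1 alone had at least 2, against 979 of all genes.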

How the data were processed

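Chromatin of 4 pooled samples was immunoprecipitated for H3S10ph and sequenced. The authors mapped reads to mm10, discarded multi-mapping reads with bamtools, brought replicates to equal depth by down-sampling and called broad peaks sample by sample against input DNA. The submitters' processing notes name BWA 7.12, SAMtools 2.4.0 and MACS2 2.1.1, and the version of the annotation used for peak calling is not given in the sources used here. The deposited lists hold, for each peak, the ratio of its signal to background (fold enrichment) and −log10 p and −log10 q values, as the authors' peak caller wrote them. These were read within their own list only, and the score column was not used. The cutoff stated in the methods corresponds to a −log10 p of 3, whereas the values given per peak reach down to 2.00. That cutoff was thus not a lower limit on the values in the lists, and a limit of 3 on them is a different, stricter one. The lists hold no read counts, so depth is unknown, no counting interval can be given, and the number of samples, 2 per condition, limits precision.

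Gene bodies, exons and principal transcripts were those of GENCODE M21 on mm10, and overlap meant at least 1 bp. Ranks were by fold, with 1 the highest. Motifs were searched on both strands. Python 3.11.15, numpy 2.4.6 and matplotlib 3.10.9 were used. The overlap step was tested on simulated data on 785 genes of chromosome 15, where it recovered 100% of 200 genes given a peak. Samples were grouped by their treatment label. The genes named are the 3 members, genes that enter their windows, genes of each fixed list with a gene body peak in both stimulated lists, and the 5 genes nearest in pattern, and genes named for shared length, for motif counts or as markers were added after their values were seen. The members, gene lists and alternatives were chosen with earlier results of these data known. With 2 samples against 2, the smallest p an exact two-sided permutation test allows is 0.333, and no test was made. Alternatives were stricter −log10 p limits, lists of equal length, 50% of the peak inside, the principal transcript alone, flanks of 10 and 50 kb, ranks by −log10 p, each replicate left out and differences within replicate numbers. Some genes that met the naming rule are not reported here by name. Protein sequences were not used here.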

Additional observations from a re-analysis of the deposited data

How the results depend on the processing

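The difference between the means of stimulated and unstimulated muscles was 9306 bp of covered gene body and 6 peaks in the windows, and 1 gene had gene body peaks in both stimulated and neither unstimulated list. Keeping peaks with a −log10 p of 3 or more, these became 2086 bp, 0.5 peaks and 0 genes, since 1 Nr4a peak remained. At 2.5 they were 4770 bp, 2.5 peaks and 1 gene, and with lists of equal length 5788 bp, 3.5 peaks and 1 gene. Leaving out each replicate in turn gave 4709 to 13900 bp, 1 to 11 peaks and 1 or 2 genes. The lowest differences, 4709 bp and 1 peak, came without stimulated replicate 2. Without stimulated replicate 1 the differences were 13900 bp and 11 peaks, and the gene count rose to 2 because Nr4a2 then met it with 1 stimulated list. Without unstimulated replicate 1, which stood apart, they were 9170 bp, 5 peaks and 1 gene. The principal transcript alone gave 6054 bp, 5.5 peaks and 1 gene, and raised the covered share of Nr4a1 in stimulated replicate 1 from 23.6% to 61.0%. A flank of 50 kb gave 10.5 peaks. Requiring 50% of the peak inside gave 9037 bp, 6 peaks and 1 gene. The replicate block, which takes differences within replicate numbers, gave 4846 bp and 2 peaks in number 1 and 13770 bp and 10 peaks in number 2, a mean of 9306 bp and 6 peaks, and 1 gene gained in each number. Whether same-numbered pools hold muscles of the same mice is not given in the sources used here.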
